A study of Mus musculus with 20 samples.

Results

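The spleens of mice lacking Nsun6 were compared with those of wild-type (WT) mice at the level of all genes. The comparison comprised the 4 spleen libraries among the 20 RNA-seq libraries of a study of the heart, kidney, liver, small intestine, and spleen, and the 18834 of 55401 annotated genes with enough counts in these 4 libraries. The knockout (KO) mice carried a homozygous deletion of exons 3 and 4 of Nsun6, made with CRISPR/Cas9 in eggs of C57BL/6J mice and bred from heterozygous mice, so that every cell of the animal lacked these exons. The strain of the WT mice and whether they were littermates are not given in the sources used here. The animals were 8 weeks old and female, and no treatment was named. Each genotype had 2 spleens, named as biological replicates, and nothing further states that they came from separate animals, so the p-values measure only the spread between these samples. Whole spleen was sequenced as mRNA, so that fewer cells of a type and less RNA per cell cannot be told apart here.

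Nsun6 is an RNA methyltransferase that places 5-methylcytosine (m5C) on a subset of mRNAs and tRNAs. In the mouse, the red pulp of the spleen filters the blood, clears aged red cells, and makes new ones, an activity that grows under stress such as anemia. Red cell precursors pass from early progenitors, which carry the receptor Kit, through erythropoietin-dependent and rapidly dividing stages that take up iron, and end as cells that hold mainly hemoglobin and the protein skeleton of the red cell membrane. The white pulp holds B and T cells, which stromal cells keep in order, and megakaryocytes lie in the red pulp.

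The 2 WT libraries held 34687048 and 25021003 counts and the 2 KO libraries 30041724 and 28636897, in the order replicate 1 and replicate 2, which is kept throughout. Levels are given as CPM, counts scaled to a common library total, after TMM scaling, a factor per library that aligns the bulk of the genes. All 4 libraries carried the markers of the tissue. Ms4a1, the B cell surface protein CD20, stood at 777 and 782 CPM in WT and at 588 and 889 CPM in KO, and Spic, the transcription factor of red pulp macrophages, at 139, 178, 165, and 138 CPM.

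WT replicate 2 stood apart from the other libraries by transcripts of the liver. Alb, which encodes the serum protein albumin, gave counts of 192 and 102807 in the WT spleens against 4122 and 5772 in the KO spleens. Of 32 hepatocyte genes, 31 could be tested, and all 31 had negative log2 fold changes (KO over WT), with a median of -3.36. Neither edgeR nor DESeq2 called any of them with all 4 libraries. Without WT replicate 2 the median turned to 3.51 and edgeR called 21 of 31 higher, whereas without WT replicate 1 it was -4.35 and edgeR called 32 of 32 lower. Their summed level was 54.1 and 7568 CPM in WT and 299 and 439 CPM in KO. Over 359 genes with high levels in the liver libraries, the median level in WT replicate 2 was 1.25% of that in liver, against 0.0126% in WT replicate 1, 0.0856% in KO replicate 1, and 0.0942% in KO replicate 2. Therefore, the edgeR counts were repeated without the genes at least 4 times higher in liver than in spleen libraries and above 0.5 CPM in liver ("liver genes"), 2074 of those tested, and without WT replicate 2.

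Nsun6 itself (ENSMUSG00000026707, chr2:14995131-15055069 in GRCm38) gave counts of 317 and 167 in the WT spleens against 177 and 282 in the KO spleens. These are 8.77, 6.59, 5.99, and 10.3 CPM, so that the genotypes overlapped, with a log2 fold change of 0.08 ± 0.34 (SE, n = 2 per genotype). Since only 2 exons are missing in the KO, a count over the whole gene does not check the genotype.

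A gene was counted as a differentially expressed gene (DEG) with a Benjamini-Hochberg adjusted p under 0.1 in edgeR's quasi-likelihood test and a fold change over 2. In the KO spleen, 41 genes were higher and 1 was lower, which is 0.218% and 0.00531% of the genes tested. The 41 higher DEGs included 12 genes of the erythroid lists, among them those for the anion exchanger of the membrane and for enzymes of heme synthesis, and 3 genes of the cell cycle lists. The smallest adjusted p was 0.0656, and 813 genes were higher and 156 lower at an unadjusted p under 0.05. None of the 42 DEGs was a liver gene as defined above. DESeq2 called 206 genes higher and 13 lower, 1.09% and 0.0690% of the genes tested, including all 42. Liver genes made up 6 of the 206 and 4 of the 13. Both KO libraries lay above both WT libraries for 3194 genes (16.96%) and below both for 2706 (14.37%). Counts of this kind given for lists below are to be set beside these shares. The median log2 fold change of all genes was 0.01. The count of DEGs depended on single libraries. Without KO replicate 2 edgeR called 0 genes, and without KO replicate 1 it called 20 higher and 1 lower, with 10 of the 42 DEGs among them. Without WT replicate 2 it called 265 higher, 74 of them liver genes, and 6 lower, with 40 of the 42, whereas without WT replicate 1 it called 70 higher and 301 lower, 290 of the latter being liver genes. Without liver genes, 104 were higher and 2 lower, including all 42, and with WT replicate 2 also left out 147 were higher and 6 lower, including 37 of the 42. Every one of the 42 kept its direction in each of these fits where it was tested. In each of the 42, both KO libraries lay on the same side of both WT libraries. Leaving out a library could therefore hardly reverse a direction, so this adds no support.

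**Figure D1:**
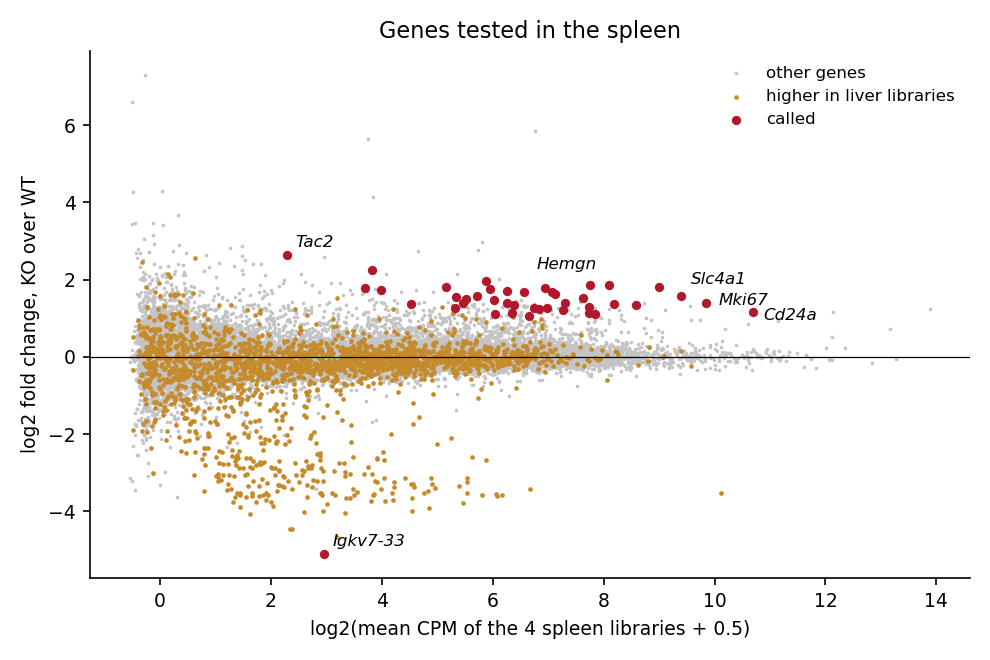
Log2 fold change (KO over WT) of each of the 18834 genes tested in the spleen against its mean level, as log2(mean CPM + 0.5) on the horizontal axis. Red points are the 42 DEGs, brown points the 2074 genes higher in liver libraries, some of which form a cloud between about the -2 and -4 ticks. Most red points lie between the ticks at 1 and 2, and Igkv7-33 is the only one below 0.

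**Figure D2:**
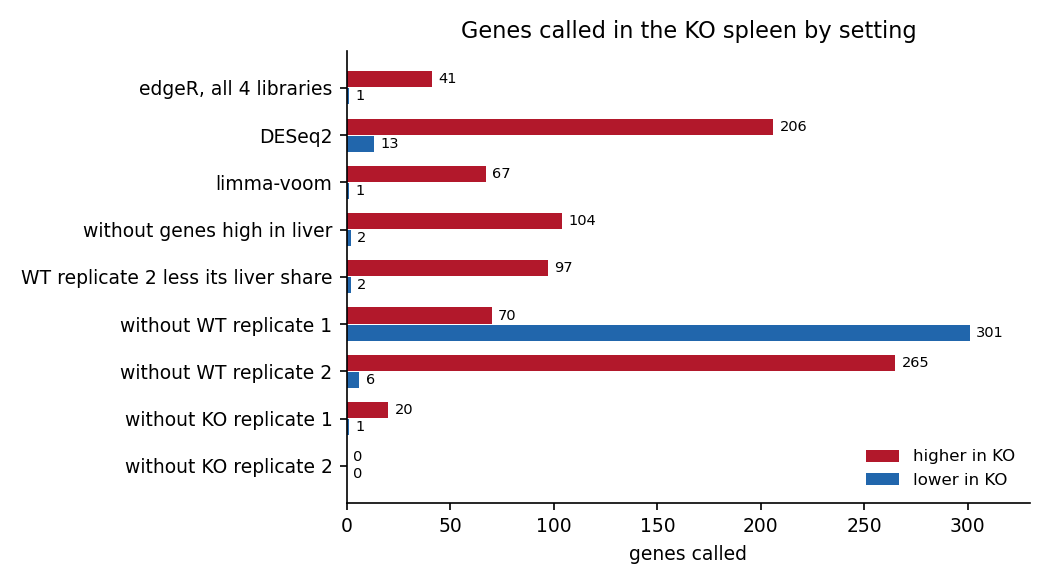
Number of genes called higher (red) and lower (blue) in the KO spleen under 9 settings of the test, on an axis starting at 0. The count with all 4 libraries is 41 and 1, and it falls to 0 when KO replicate 2 is left out.

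The red cell membrane and its skeleton held 5 DEGs, 3 of which are described here, among them the higher DEG with the smallest p. Slc4a1 (ENSMUSG00000006574, chr11:102348824-102366203), the anion exchanger band 3, stood at 317 and 359 CPM in WT and at 1013 and 990.1 CPM in KO. Both KO libraries lay far above both WT libraries, and the log2 fold change was 1.57 ± 0.16 (SE, adjusted p = 0.0656). Epb42, encoding protein 4.2, a linker between band 3 and ankyrin, rose from 58.5 and 69.5 CPM to 185 and 223 CPM. Rhd, of the Rh blood group complex, rose from 53.4 and 82.4 CPM to 224 and 199 CPM. In these 3 genes the lowest KO value was above the highest WT value, and the log2 fold changes lay between 1.57 and 1.67. Of the 22 genes of the list, 21 could be tested, and all 21 had positive log2 fold changes, with a median of 1.34 beside 0.01 for all genes. In 20 of the 21, both KO libraries were above both WT libraries. DESeq2 called 15 of them, including the ankyrin Ank1, and edgeR called 12 of 20 without liver genes, 15 of 21 without WT replicate 2, 3 without KO replicate 1, and 0 without KO replicate 2. The levels of the whole list summed to 1747 and 2251 CPM in WT and to 5093 and 4928 CPM in KO.

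For Epb42 and for Trim10, Hemgn, and Alas2, described below, the bases before the start of the gene are shown, because these members rose together. Letters in capitals mark GATAA on either strand, the core bound by GATA factors, and CCNCNCCC on either strand, a form of the CACCC box bound by KLF factors. Each is read from 5′ to 3′ on the strand of the gene, up to 250 bases before the RefSeq start in GRCm38.p6, and ends where the annotation of the counts places an exon. Trim10, a late erythroid gene of the tripartite motif family, is printed in place of Slc4a1, which had no entry. Trim10 is at chr17:36869324-36869573 (plus strand), Epb42 at chr2:121037073-121037127 (minus), Hemgn at chr4:46404237-46404433 (minus), and Alas2 at chrX:150547167-150547374 (plus). The Hemgn stretch lies inside the gene as counted (chr4:46393989-46413506), whose annotation starts further upstream than the RefSeq start.
Trim10: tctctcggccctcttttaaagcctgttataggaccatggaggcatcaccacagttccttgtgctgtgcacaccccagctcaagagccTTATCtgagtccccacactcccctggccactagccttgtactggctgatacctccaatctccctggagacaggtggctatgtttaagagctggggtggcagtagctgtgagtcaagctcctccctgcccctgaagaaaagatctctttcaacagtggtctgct
Epb42: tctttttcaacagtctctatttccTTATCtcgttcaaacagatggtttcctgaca
Hemgn: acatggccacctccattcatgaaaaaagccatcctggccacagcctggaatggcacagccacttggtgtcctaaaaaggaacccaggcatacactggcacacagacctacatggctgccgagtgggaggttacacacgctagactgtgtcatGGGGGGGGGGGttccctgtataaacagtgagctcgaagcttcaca
Alas2: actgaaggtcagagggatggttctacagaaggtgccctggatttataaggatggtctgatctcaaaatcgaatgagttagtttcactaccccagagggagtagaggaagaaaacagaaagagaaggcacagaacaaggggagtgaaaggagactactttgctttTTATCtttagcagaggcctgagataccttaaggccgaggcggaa
In Trim10, Epb42, and Alas2 the capitals TTATC are GATAA on the opposite strand, 158, 221, and 81 bases from the start. In Hemgn the run of G in capitals holds 4 overlapping matches of CCNCNCCC on the opposite strand, from 87 to 90 bases from the start. The whole windows of Hemgn and Alas2 hold further matches nearer to the start, a GATAA 7 bases from it in Hemgn and 4 of CCNCNCCC between 18 and 34 bases from it in Alas2, in bases that are not printed. GATAA was found in 22.6% of the 32851 windows of 27025 genes, in 36 of the 121 windows of the erythroid lists (29.8%), and in 8 of the 15 windows of the 8 higher erythroid DEGs with an entry. CCNCNCCC was found in 45.9% of all windows, in 84 of 121 (69.4%), and in 7 of 15. The 2 motifs do not overlap in the sequences printed, and a match is only a description of the letters.

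Heme synthesis, which starts and ends in the mitochondria, held 4 DEGs. Alas2, the rate-limiting enzyme of heme synthesis in red cell precursors, stood at 203 and 230.1 CPM in WT and at 488 and 611 CPM in KO, with a log2 fold change of 1.34 ± 0.18 (adjusted p = 0.0839). Its exons share 15.5% of their bases with Apex2 and Mir3620 on the opposite strand, from which reads cannot be told apart without the strand. Fech, the enzyme that inserts iron into the ring, rose from 117 and 129 CPM to 279 and 325 CPM (log2 fold change 1.30 ± 0.16, adjusted p = 0.0742). Abcb10, a mitochondrial transporter, rose from 55.5 and 70.1 CPM to 152 and 150.2 CPM. Slc6a9, which brings in the glycine for the first step, rose from 5.23 and 6.04 CPM to 17.5 and 21.2 CPM. Abcb10 and Slc6a9 share 10.3% and 30.3% of their exon bases with other genes. In these 4 genes the genotypes did not overlap. All 14 genes of the list had positive log2 fold changes (median 1.23) and were higher in both KO libraries than in both WT libraries. The list also included Tmem14c, which per length had the highest level of the 14, at a mean of 402 TPM, a share of all transcripts corrected for length, and which carries the ring precursor into the mitochondrion. DESeq2 called 8 of the 14, including Uros, Urod, and Cpox, which carry out middle steps of the pathway, and edgeR called 6 without liver genes, 8 without WT replicate 2, 2 without KO replicate 1, and 0 without KO replicate 2.

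Of the factors that drive the red cell program, 2 were DEGs. Hemgn, an erythroid nuclear protein, stood at 75.2 and 113 CPM in WT and at 327 and 351 CPM in KO (log2 fold change 1.85 ± 0.22, adjusted p = 0.0711). Sox6, a transcription factor of red cell maturation, stood at 24.4 and 32.1 CPM in WT and at 89.3 and 100.2 CPM in KO (1.75 ± 0.19, adjusted p = 0.0656). Both genes were well apart between genotypes. The master factors themselves did not pass edgeR's test. Klf1, which activates the adult beta globin gene, stood at 13.5 and 34.4 CPM in WT and at 75.1 and 63.6 CPM in KO, a log2 fold change of 1.54 ± 0.49 (adjusted p = 0.820). DESeq2 called it, together with Tal1, Nfe2, Sox6, and Hemgn. Gata1, required for red cell and megakaryocyte maturation, stood at 20.7 and 44.9 CPM in WT and at 85.2 and 45.7 CPM in KO, so that KO replicate 2 was close to WT replicate 2. Of the 15 regulators, 12 had positive log2 fold changes, with a median of 0.68 (0.45 without KO replicate 1), and 10 were higher in both KO libraries. Without WT replicate 2 edgeR called 5 of the 15, and when either KO library was left out 0, so that the calls of Hemgn and Sox6 ended there.

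No gene of the earliest red cell stages was a DEG. Kit, the receptor for stem cell factor, stood at 34.8 and 36.9 CPM in WT and at 36.1 and 21.995 CPM in KO. Myb, a factor of dividing progenitors whose exons share 6.26% of their bases with a gene on the opposite strand, stood at 76.2 and 89.8 CPM in WT and at 81.0 and 62.9 CPM in KO. Gata2, which precedes Gata1 in development, stood at 8.66 and 11.7 CPM in WT and at 8.76 and 5.21 CPM in KO. The genotypes overlapped in all 3, and KO replicate 2 was the lowest library in each. By contrast, Tfrc, the transferrin receptor of iron-importing precursors, stood at 345 and 511 CPM in WT and at 1045 and 1095 CPM in KO, with a log2 fold change of 1.32 ± 0.21 that missed the threshold (adjusted p = 0.116). Epor, the erythropoietin receptor, stood at 23.5 and 40.0 CPM in WT and at 94.0 and 54.4 CPM in KO (1.23 ± 0.37). The list of 14 early genes was mixed, with 8 positive and 6 negative log2 fold changes and a median of 0.22, and it had 0 DEGs with edgeR and 3 with DESeq2 (Epor, Tfrc, and Cldn13). Without liver genes edgeR called 1, without WT replicate 1 it called 2, without WT replicate 2 it called 4, and when either KO library was left out 0. This median was -0.07 without KO replicate 1, 0.09 without WT replicate 1, 0.39 without WT replicate 2, and 0.44 without KO replicate 2. Whether the late genes differed more than the early ones was not tested.

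Signals of stress erythropoiesis were not among the DEGs. Bmp4, the spleen signal of the stress response, stood at 5.70 and 7.50 CPM in WT and at 6.76 and 6.48 CPM in KO, within the range of WT, with 3.96% of exon bases shared. Gdf15, a further ligand of this response, stood at 1.16 and 0.592 CPM in WT and at 1.59 and 1.93 CPM in KO (log2 fold change 0.99 ± 0.52). The 11 of 12 genes tested had a median of 0.00, with 6 positive and 5 negative, and this median was below 0 under all 14 alternatives. Among 14 genes of the erythropoietin response, the median was 0.07, from -0.02 without KO replicate 1 to 0.23 without KO replicate 2. Bcl2l1, which keeps red cell precursors alive, stood at 42.7 and 41.2 CPM in WT and at 76.9 and 65.9 CPM in KO (0.77 ± 0.16, adjusted p = 0.220). Erfe, the erythroid hormone that lowers hepcidin, stood at 0.443 and 1.11 CPM in WT and at 3.04 and 1.68 CPM in KO (1.62 ± 0.60, adjusted p = 0.811), with 12.7% of its exon bases shared with another gene. In iron uptake, 10 of 12 genes had positive values with a median of 0.32 (0.17 without WT replicate 1). DESeq2 called 1 gene of this list, Tfrc, and 1 of the erythropoietin response, Epor, and edgeR called 0 of either. Both genes are also in the early list and were counted there. For iron uptake, edgeR called 1 in several settings, among them without liver genes, with the replicate block, and without the filter on low counts. Without that filter it also called 1 of the erythropoietin response. Among the 10 was Slc25a37, the mitochondrial iron importer, at 569 and 588 CPM in WT and 1235 and 1014 CPM in KO (0.96 ± 0.16, adjusted p = 0.132, with 6.33% of exon bases shared).

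The globins were the most abundant erythroid transcripts. Hbb-bs, the adult beta chain, stood at 7452 and 10543 CPM in WT and at 16557 and 25835 CPM in KO, a log2 fold change of 1.24 ± 0.27 (adjusted p = 0.256). Hba-a1, an adult alpha chain, stood at 5564 and 8242 CPM in WT and at 13722 and 9036 CPM in KO (0.72 ± 0.27, adjusted p = 0.848). KO replicate 2 was thus the highest library for the beta chain, whereas KO replicate 1 was the highest for the alpha chain. Genes of the 2 alpha copies are nearly identical, and their reads could be split between them. All 5 globin chains of the list that passed the filter on low counts had positive log2 fold changes, with a median of 0.94 (1.504 over 7 chains without WT replicate 2). With all 4 libraries edgeR called none of them and DESeq2 called the beta chains Hbb-bs and Hbb-bt. With the replicate number as a block edgeR called 2 higher, and without WT replicate 2 it called 2 of 7. The summed level of the list was 16705 and 23762 CPM in WT and 38162 and 45310 CPM in KO. The embryonic genes Hba-x, with 0, 6, 10, and 7 counts, and Hbb-y, with 0, 2, 13, and 6 counts, did not pass the filter on low counts. Hbb-bh1, among the 5 chains tested, passed it with 4, 24, 20, and 28 counts, and the genotypes overlapped. Outside the list, Hbq1b (chr11:32286965-32287784), a theta globin gene, was a DEG, at 11.6 and 13.4 CPM in WT and 30.0 and 34.9 CPM in KO (log2 fold change 1.38 ± 0.20, adjusted p = 0.0969). Its copy Hbq1a stood at 1.49 and 1.46 CPM in WT and at 2.60 and 4.44 CPM in KO (1.25 ± 0.43, adjusted p = 0.730), and reads could be split between these copies. Hbq1b was the single globin among the DEGs, and its call ended with library size alone, with the replicate block, and without WT replicate 1 or either KO library.

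Among 19 late erythroid genes, 17 had positive log2 fold changes, with a median of 0.64, and 15 were higher in both KO libraries. Trim10 was the DEG of this list, at 55.0 and 55.8 CPM in WT and 166 and 215 CPM in KO (log2 fold change 1.78 ± 0.18, adjusted p = 0.0656). Ube2l6, a conjugating enzyme for ISG15 that is abundant in reticulocytes, stood at 268 and 306 CPM in WT and at 578 and 579.9 CPM in KO, narrowly outside the threshold (1.01 ± 0.15, adjusted p = 0.103). Bpgm, which makes the 2,3-bisphosphoglycerate that lowers oxygen affinity, stood at 161 and 166 CPM in WT and at 273 and 388 CPM in KO (1.02 ± 0.20, adjusted p = 0.170). DESeq2 called 6 of the list, and edgeR called 4 without liver genes, 4 without WT replicate 2, 2 without KO replicate 1, and 0 without KO replicate 2.

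**Figure D3:**
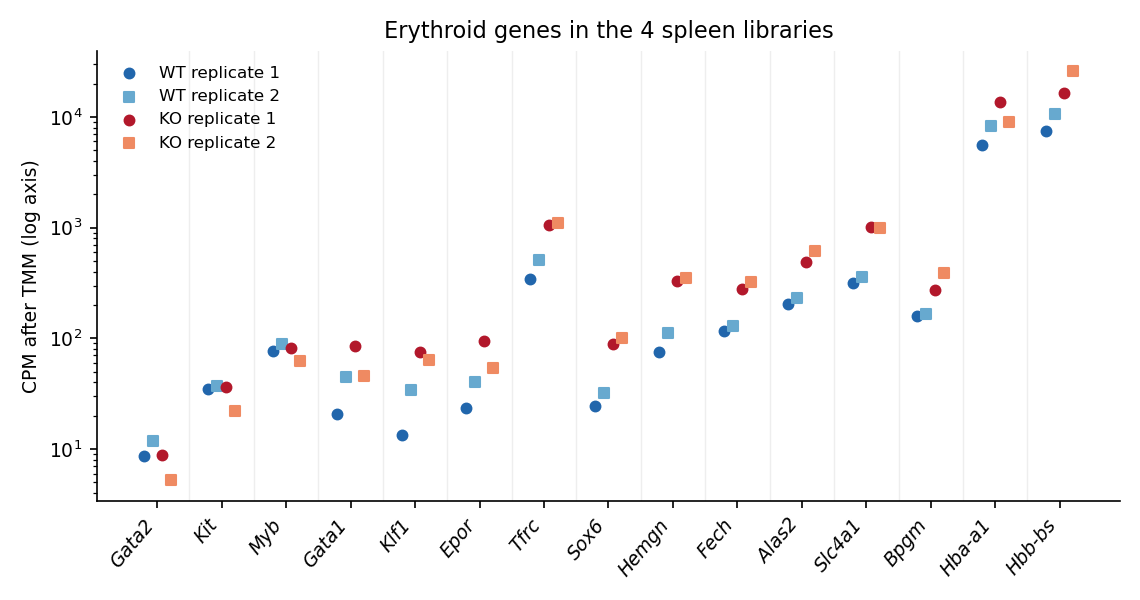
Level in CPM, on a log axis, of 15 erythroid genes chosen from the text in each of the 4 spleen libraries. WT libraries are blue and KO libraries red or orange. The genotypes overlap for Gata2, Kit, and Myb on the left, and both KO libraries lie above both WT libraries in the other 12. Over the whole lists this held for 5 of 14 early genes, 10 of 15 regulators, and 15 of 19 late genes.

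Further DEGs outside the lists were led by Pkhd1l1 (chr15:44457494-44601369), a large membrane protein of the fibrocystin family, at 21.5 and 25.7 CPM in WT and 78.8 and 106.0 CPM in KO (log2 fold change 1.97 ± 0.21, adjusted p = 0.0656). Fhdc1, a formin domain protein, rose from 21.1 and 19.4 CPM to 58.7 and 60.1 CPM. The apolipoprotein L genes Apol11b and Apol8 rose from 50.4 and 39.2 CPM to 137 and 150.3 CPM and from 14.9 and 15.9 CPM to 62.9 and 46.1 CPM. These have close paralogs in the same cluster, with which reads could be shared. All 4 genes were apart between genotypes. Tac2, a precursor of a tachykinin peptide, had the largest log2 fold change of the 41 higher DEGs, 2.63 ± 0.38 (adjusted p = 0.0969). It stood at 0.996 and 1.46 CPM in WT and at 8.32 and 6.85 CPM in KO. Its call ended with library size alone, with the replicate block, and, like that of every DEG, without KO replicate 2. Ackr1, the Duffy chemokine receptor of red cells and venules, rose from 6.70 and 7.38 CPM to 27.4 and 19.7 CPM, with 25.7% of its exon bases shared with Cadm3. This call ended in the same settings as that of Tac2. Of the 41 higher DEGs, 23 were in none of the lists.

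Genes of cell division held 3 DEGs, 2 of them in the mitosis list and 1 in the list of the G1 to S control. Mki67 (ENSMUSG00000031004, chr7:135689784-135716361), the proliferation marker Ki-67, stood at 454 and 554 CPM in WT and at 1322 and 1337 CPM in KO. The KO libraries differed from each other by far less than from the WT libraries, and the log2 fold change was 1.40 ± 0.17 (adjusted p = 0.0711). Cenpf, a kinetochore protein, stood at 41.1 and 53.2 CPM in WT and at 108 and 130.0 CPM in KO (1.34 ± 0.19, adjusted p = 0.0969). Ccnb1, cyclin B1 of mitotic entry, stood at 37.0 and 60.7 CPM in WT and at 104 and 104 CPM in KO (1.09 ± 0.24, adjusted p = 0.249). All 58 genes of the mitosis list had positive log2 fold changes, from 0.19 to 1.40 with a median of 0.98, and 57 were higher in both KO libraries. The 2 DEGs of the list were Mki67 and Cenpf with edgeR, and DESeq2 called 23. Without liver genes edgeR called 8, without WT replicate 2 it called 28, and it called 0 both without KO replicate 1 and without KO replicate 2. Among the 23 were the cyclin gene Ccna2, which shares 12.5% of its exon bases with another gene, the kinase gene Cdk1, and the motor gene Kif11. The level of the list summed to 2696 and 3608 CPM in WT and to 6278 and 6266 CPM in KO. WT replicate 2 was above WT replicate 1 in this sum, as it was in the red cell membrane list.

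The bases before the starts of the 2 mitosis DEGs are shown for the motifs of genes expressed in the G2 and M phases. Capitals mark TTTGAA, the cell cycle homology region, and CCAAT, the box bound by NF-Y, on either strand. Mki67 is at chr7:135716380-135716629 and Cenpf at chr1:189688087-189688336, both on the minus strand of GRCm38.p6 and read from 5′ to 3′ up to the RefSeq start.
Mki67: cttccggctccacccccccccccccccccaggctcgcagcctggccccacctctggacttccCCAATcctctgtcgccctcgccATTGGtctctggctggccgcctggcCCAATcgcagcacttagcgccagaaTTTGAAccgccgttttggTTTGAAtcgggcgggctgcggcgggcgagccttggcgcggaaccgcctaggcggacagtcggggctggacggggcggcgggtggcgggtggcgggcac
Cenpf: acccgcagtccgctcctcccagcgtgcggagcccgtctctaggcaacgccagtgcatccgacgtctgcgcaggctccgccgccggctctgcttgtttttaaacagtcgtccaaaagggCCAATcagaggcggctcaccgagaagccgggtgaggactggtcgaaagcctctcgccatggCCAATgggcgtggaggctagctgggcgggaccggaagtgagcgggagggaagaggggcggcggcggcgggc
Mki67 holds TTTGAA at 110 and 92 bases from the start and CCAAT at 183, 161, and 136 bases, the match at 161 on the opposite strand (ATTGG). Cenpf holds CCAAT at 127 and 66 bases. The 2 motifs do not overlap here. TTTGAA was found in 15.99% of all 32851 windows and in 19 of 54 windows of the mitosis list (35.2%), and CCAAT in 33.9% of all windows and in 40 of 54 (74.1%).

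DNA replication genes had 0 DEGs with edgeR among 40 tested and 3 with DESeq2 (Rrm2, Tyms, and Orc1, the last with 10.8% of exon bases shared). Without WT replicate 2 edgeR called 7, without liver genes 1 of 39, and 0 when any other library was left out. Of the 40, 39 had positive log2 fold changes with a median of 0.68, and 31 were higher in both KO libraries. Tyms, which makes thymidylate, stood at 27.4 and 40.7 CPM in WT and at 81.7 and 73.6 CPM in KO (1.19 ± 0.22, adjusted p = 0.148). Mcm5, a subunit of the replicative helicase, stood at 57.1 and 69.2 CPM in WT and at 118 and 90.0 CPM in KO (0.72 ± 0.19, adjusted p = 0.402). Pcna, the polymerase clamp, stood at 252 and 375 CPM in WT and at 520 and 538 CPM in KO (0.76 ± 0.21). Both KO libraries were above both WT libraries in these 3 genes, and each log2 fold change was smaller than that of Mki67. The median of the list was 0.43 without WT replicate 1.

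Among 25 genes of the G1 to S control, 20 had positive values with a median of 0.18 (0.47 without WT replicate 2). The DEG was Tfdp2, a partner of E2F factors, at 137 and 127 CPM in WT and 263 and 319 CPM in KO (1.14 ± 0.17, adjusted p = 0.0969). Its call ended with library size alone, with the replicate block, and without WT replicate 2 or either KO library. DESeq2 called 3 genes of the list, and edgeR called 2 others without WT replicate 2. E2f8, an E2F repressor that acts in red cell precursors, stood at 10.1 and 16.97 CPM in WT and at 38.5 and 32.4 CPM in KO (1.39 ± 0.28, adjusted p = 0.186, with 11.2% of exon bases shared). E2f2 stood at 79.7 and 77.1 CPM in WT and at 143 and 128 CPM in KO (0.79 ± 0.15, adjusted p = 0.169). Cdkn1a, the p21 inhibitor of the cycle, stood at 7.41 and 4.38 CPM in WT and at 7.37 and 5.79 CPM in KO, within the range of WT, with 7.68% of exon bases shared.

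Megakaryocyte and platelet genes had mostly negative log2 fold changes, without a DEG. Pf4, platelet factor 4, stood at 110 and 165 CPM in WT and at 80.7 and 101 CPM in KO (log2 fold change -0.60 ± 0.23, adjusted p = 0.844). Itga2b, the platelet integrin subunit, stood at 37.7 and 59.2 CPM in WT and at 33.9 and 31.4 CPM in KO (-0.57 ± 0.24). Thbs1, thrombospondin of platelet granules, stood at 55.1 and 85.8 CPM in WT and at 38.8 and 44.6 CPM in KO (-0.75 ± 0.23, adjusted p = 0.562, with 3.42% of exon bases shared). In all 3 both KO libraries were below both WT libraries, but WT replicate 2 was far above WT replicate 1. Vwf, von Willebrand factor, was at 20.8 and 32.6 CPM in WT and at 17.3 and 16.02 CPM in KO. Of 24 genes tested of 25, 21 had negative values with a median of -0.36, and 13 were below WT in both KO libraries. The median was -0.60 when WT replicate 1 was left out and -0.23 when WT replicate 2 was. Both edgeR and DESeq2 called 0 of them.

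Neutrophil genes were highest in WT replicate 2. All 20 had negative log2 fold changes, with a median of -0.61, and edgeR and DESeq2 called 0, although edgeR called 3 lower without WT replicate 1. The summed level was 599 and 1256 CPM in WT and 404 and 872 CPM in KO. S100a8, a calcium-binding protein of neutrophils, stood at 108 and 214 CPM in WT and at 63.0 and 177 CPM in KO, and Elane, the elastase of their precursors, at 8.24 and 19.02 CPM in WT and at 6.70 and 10.7 CPM in KO. Only 4 of the 20 had both KO libraries below both WT libraries, beside 14.37% of all genes tested. The median was 0.07 without WT replicate 2, -0.31 without KO replicate 1, -0.98 without WT replicate 1, and -1.25 without KO replicate 2.

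Red pulp macrophage genes had a median of 0.06, from -0.08 without KO replicate 1 to 0.22 without WT replicate 2, and none of the 21 was a DEG with edgeR, whereas DESeq2 called 1 (Blvrb), and edgeR called 1 lower without WT replicate 1 and 1 higher without WT replicate 2. Hmox1, the enzyme that opens the heme ring, stood at 277 and 490.3 CPM in WT and at 428 and 208 CPM in KO, so that the genotypes overlapped. Blvrb, a biliverdin reductase that red cell precursors also express, stood at 117 and 204 CPM in WT and at 362 and 297 CPM in KO (1.04 ± 0.28, adjusted p = 0.442). The 6 genes of marginal zone macrophages had a median of 0.10, from -0.23 without KO replicate 1 to 0.27 without KO replicate 2, and edgeR called 1 lower without WT replicate 1. The 13 dendritic cell genes had one of -0.07 (-0.24 without KO replicate 1 and -0.01 without WT replicate 1), and the 8 of 9 mast cell and basophil genes tested one of -0.31 (-0.09 without WT replicate 2 and 0.12 with liver genes also removed).

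No B cell gene was called by edgeR or DESeq2. Pax5, the factor that fixes B cell identity, stood at 493 and 397 CPM in WT and at 361 and 272 CPM in KO (-0.49 ± 0.20, adjusted p = 0.918, with 8.60% of exon bases shared). Ebf1, an earlier B cell factor, stood at 124 and 127 CPM in WT and at 106 and 84.8 CPM in KO (-0.39 ± 0.17). Ms4a1, given above, had 1 KO library on either side of WT. Of the 20 B cell genes, 18 were negative, with a median of -0.18, and 8 were below WT in both KO libraries. The median was -0.34 when KO replicate 1 was left out and -0.10 when KO replicate 2 was. Genes of follicular and marginal zone B cells had a median of -0.10, from -0.24 without WT replicate 2 to 0.06 without WT replicate 1, and the 10 of 11 germinal centre genes tested had one of 0.49, from -0.08 without KO replicate 2 to 0.96 without KO replicate 1. Rgs13, a germinal centre regulator, showed this library, at 4.98 and 5.72 CPM in WT and 6.66 and 18.8 CPM in KO.

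Antibody constant region genes had mostly positive values, without a DEG. Igha, the heavy chain of IgA, stood at 579 and 462 CPM in WT and at 1045 and 966 CPM in KO, a log2 fold change of 0.95 ± 0.17 that missed the threshold (adjusted p = 0.145). Igkc, the kappa chain, was per length the most abundant of them, at a mean of 21161 TPM. It stood at 3730.3 and 3654 CPM in WT and at 5302 and 5182 CPM in KO (0.51 ± 0.15, adjusted p = 0.481). Ighm, the heavy chain of IgM, stood at 3835 and 3787 CPM in WT and at 3939 and 4983 CPM in KO. Of 12 constant region genes, 10 were positive with a median of 0.37 (0.18 without KO replicate 2 and 0.23 without WT replicate 1), and 0 were DEGs with edgeR or DESeq2, although edgeR called 2 higher without WT replicate 1 and 1 without WT replicate 2. Jchain, which joins IgA and IgM chains, stood at 1094 and 1135 CPM in WT and at 1457 and 2554 CPM in KO (0.85 ± 0.27), while the 16 plasma cell genes had a median of 0.07, from -0.04 without KO replicate 2 to 0.23 without KO replicate 1.

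The lower DEG was an antibody variable segment. Igkv7-33 (ENSMUSG00000076575, chr6:70058632-70059199) gave counts of 413 and 425 in the WT spleens against 9 and 14 in the KO spleens, with a log2 fold change of -5.10 ± 0.41 (adjusted p = 0.0656). Both WT libraries held it at 11.4 and 16.8 CPM and both KO libraries at 0.304 and 0.510 CPM. Reads of such a segment could be shared with other segments of like sequence. Over the 195 variable segments tested, 132 log2 fold changes were positive and 63 negative, with a median of 0.30. Of these segments, 23 were below WT in both KO libraries and 42 above, beside 14.37% and 16.96% of all genes tested. Their summed level was 2628 and 2485 CPM in WT and 2604 and 4300.2 CPM in KO, so that KO replicate 2 was apart from the others.

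T cell genes showed no separation by genotype. Cd3e, a subunit of the T cell receptor complex, stood at 42.3 and 27.7 CPM in WT and at 27.8 and 34.1 CPM in KO. Cd4 stood at 92.2 and 56.1 CPM in WT and at 72.2 and 102 CPM in KO, and Cd8a at 180.5 and 95.7 CPM in WT and 142 and 153 CPM in KO. WT replicate 2 was the lowest library in Cd4 and Cd8a. The 23 T cell genes had a median of 0.12, which ranged from -0.16 without WT replicate 2 to 0.40 without WT replicate 1, and in none of them were the genotypes apart. The 7 regulatory T cell genes had a median of -0.08 (from -0.32 without WT replicate 2 to 0.33 without WT replicate 1) and the 13 genes of NK and cytotoxic cells one of -0.06 (-0.18 without KO replicate 1), with Ncr1, the NK cell receptor NKp46, at 9.66 and 12.7 CPM in WT and 12.8 and 13.4 CPM in KO.

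The stromal and endothelial lists were at their lowest median level in KO replicate 2. Pdgfrb, a growth factor receptor of reticular and perivascular cells, stood at 42.8 and 38.5 CPM in WT and at 33.8 and 22.2 CPM in KO (-0.54 ± 0.23, adjusted p = 0.986). Nr2f2, a nuclear receptor of mesenchyme and veins, stood at 52.5 and 66.5 CPM in WT and at 48.0 and 37.0 CPM in KO (-0.48 ± 0.20, with 7.46% of exon bases shared). The 12 genes of splenic mesenchyme were all negative, with a median of -0.31, and 7 were below WT in both KO libraries. Among 16 endothelial genes, 15 were negative with a median of -0.34, which was -0.56 when KO replicate 1 was left out and -0.16 when KO replicate 2 was. Ptprb, a phosphatase of vessel walls, stood at 72.8 and 82.1 CPM in WT and at 60.1 and 55.0 CPM in KO (-0.43 ± 0.16), and Stab2, a scavenger receptor of sinus endothelium, at 87.8, 114, 97.2, and 73.3 CPM, with overlap. The median was -0.25 for 12 smooth muscle genes (-0.45 without KO replicate 1 and -0.09 without KO replicate 2), with Acta2, smooth muscle actin, at 162 and 185 CPM in WT and at 161 and 87.7 CPM in KO. For 22 matrix genes it was -0.21 (-0.36 without KO replicate 1), with Col3a1, the collagen of reticular fibres, at 92.2 and 123 CPM in WT and at 86.1 and 70.4 CPM in KO, and Col1a1, the main collagen of fibrous tissue, at 33.3, 40.8, 38.2, and 24.9 CPM. Neither edgeR nor DESeq2 called any gene of these 4 lists, apart from 1 matrix gene lower without WT replicate 1 and 1 higher without WT replicate 2.

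Lymphoid stroma genes had a median of -0.06 over the 13 of 15 tested, which was 0.24 when WT replicate 1 was left out and -0.32 when WT replicate 2 was, where 2 genes were called lower. Cxcl13, the chemokine of B cell follicles, stood at 225 and 199 CPM in WT and at 187 and 222 CPM in KO. A pair of T zone chemokines was present mainly in 1 library. Ccl19 stood at 23.1 and 0.829 CPM in WT and at 1.49 and 0.728 CPM in KO, and Ccl21a, with counts of 65 and 0 in the WT spleens against 2 and 2 in the KO spleens, did not pass the filter. WT replicate 1 was thus the high library for both.

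**Figure D4:**
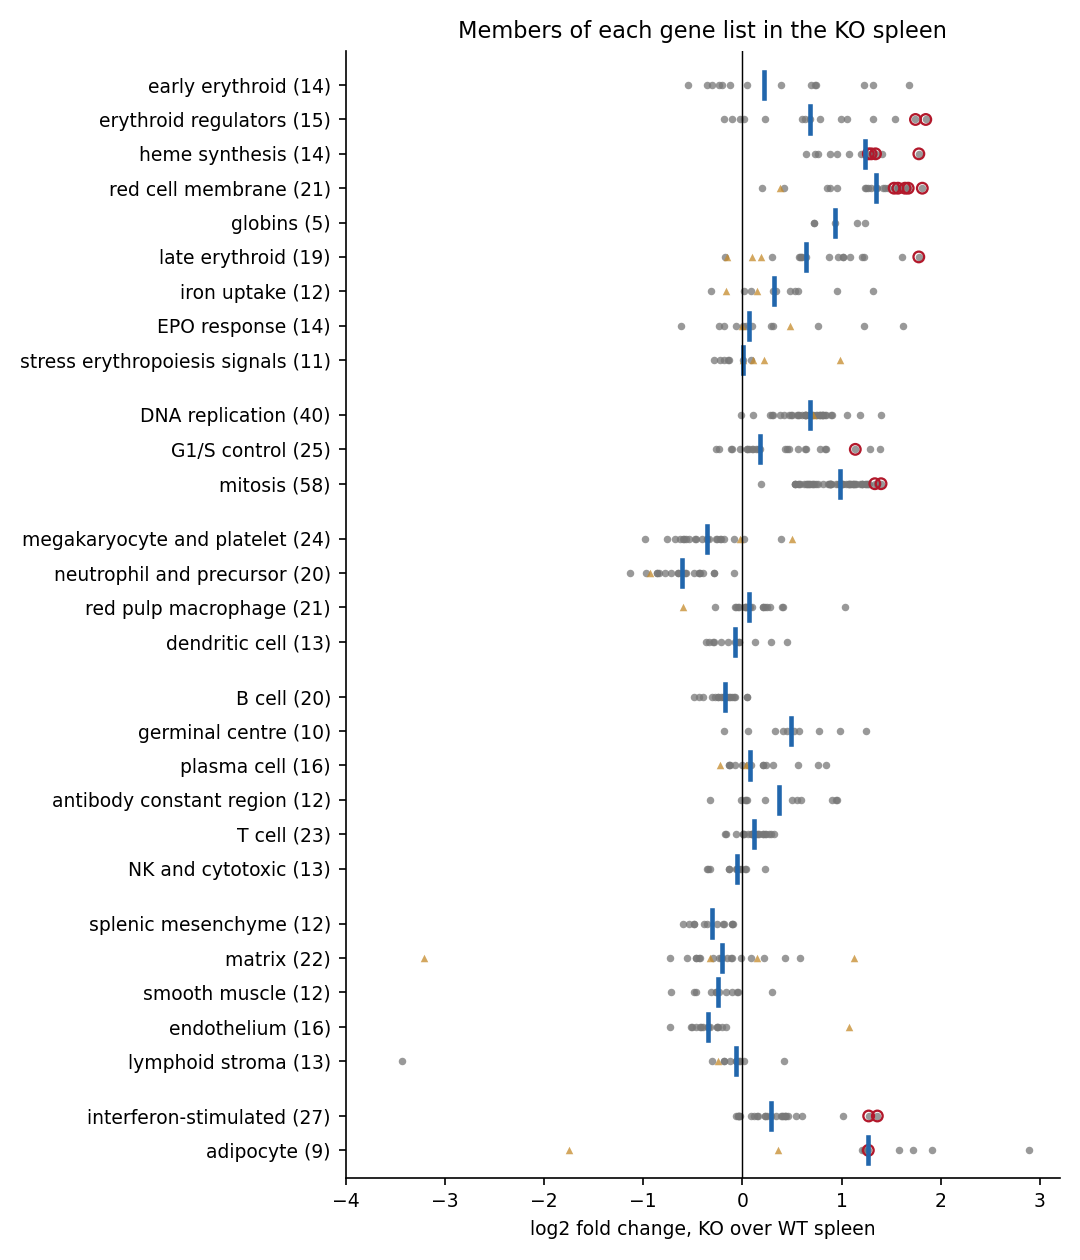
Log2 fold change (KO over WT spleen) of every tested member of 29 gene lists, with the number tested in parentheses. Grey points are genes, brown triangles genes higher in liver libraries, red circles DEGs, and blue bars list medians, the highest erythroid one being 1.34 for the red cell membrane and the mitosis one 0.98.

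**Figure D5:**
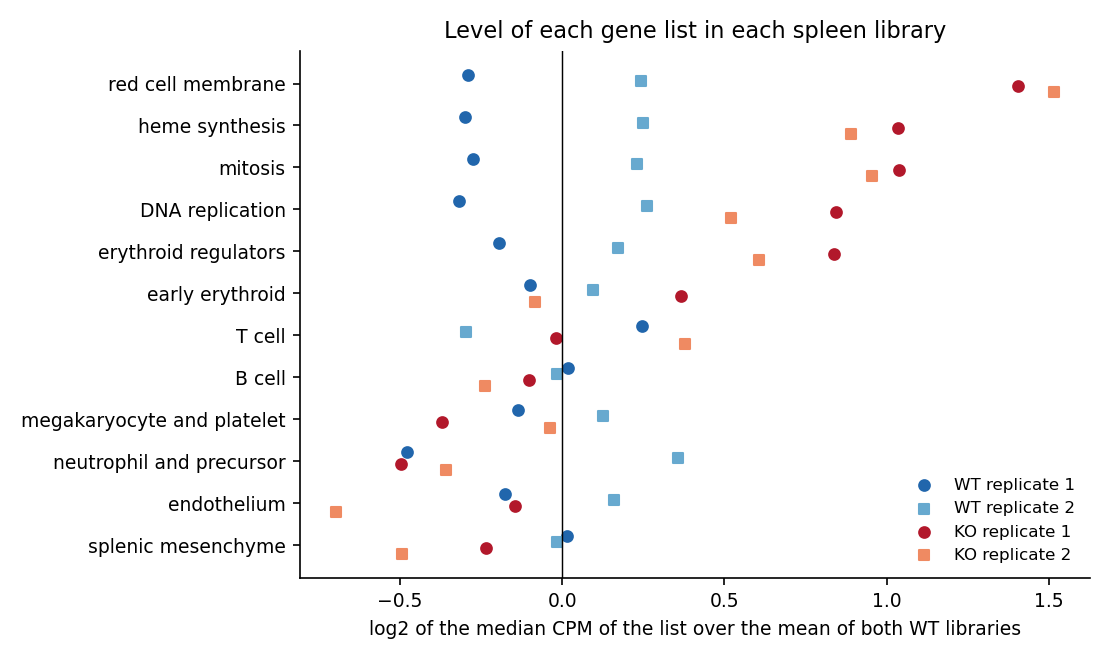
Level of 12 gene lists in each library, as log2 of the median CPM of the list over the mean of both WT libraries, with WT in blue and KO in red or orange. The KO libraries are at 1.41 and 1.52 for the red cell membrane and apart from WT down to the erythroid regulators, whereas neutrophil genes are high in WT replicate 2 alone (0.36) and endothelial genes are lowest in KO replicate 2 (-0.70).

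Interferon-stimulated genes had 2 DEGs among 27. Rsad2, the antiviral protein viperin, stood at 169 and 159 CPM in WT and at 413 and 429 CPM in KO (1.36 ± 0.15, adjusted p = 0.0656). Isg15, a ubiquitin-like modifier, stood at 70.2 and 77.5 CPM in WT and at 183 and 174 CPM in KO (1.27 ± 0.15, adjusted p = 0.0711). Both were well apart, while Ifi27l2a, per length the most abundant member at a mean of 1757 TPM, stood at 307, 307, 365, and 304 CPM. The list had a median of 0.29, with 14 of 27 genes higher in both KO libraries, and edgeR called 1 without KO replicate 1 and 0 without KO replicate 2. The 17 stress and immediate early genes had a median of -0.11, which ranged from -0.54 to 0.18 when 1 library was left out, and edgeR called 2 of them higher when either WT library was left out.

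Genes of tissues that can adhere to the spleen differed between libraries too. Fabp4, a fatty acid-binding protein of adipocytes, capillaries, and macrophages, was a DEG, at 22.7 and 23.6 CPM in WT and 58.6 and 53.2 CPM in KO (1.27 ± 0.17, adjusted p = 0.0839). Its call ended with the replicate block and when either KO library was left out. Adipoq, adiponectin of adipocytes, stood at 6.47 and 1.03 CPM in WT and at 13.9 and 14.6 CPM in KO (1.91 ± 0.95). Of 9 adipocyte genes tested of 10, 8 were higher in both KO libraries, with a median of 1.27 (2.18 without WT replicate 1), DESeq2 called 4 of them higher, edgeR called 3 higher and 1 lower without WT replicate 1, 2 higher without WT replicate 2, and 0 when either KO library was left out, and their level summed to 88.0 and 155 CPM in WT and to 196 and 179 CPM in KO. Per length the most abundant of them was Cfd at a mean of 64.5 TPM. The part of adipose tissue in the Fabp4 result was not tested. The exocrine pancreas, whose tail touches the spleen, had 2 of 14 genes above the filter, with Prss2 at 21 and 7 counts in WT and 18 and 19 counts in KO. Mesothelial genes had a median of 0.27, which was 1.16 without WT replicate 1, -0.12 without WT replicate 2, and -0.03 without KO replicate 2. The 5 of 8 skeletal muscle genes tested had one of 0.70, which was -0.54 without KO replicate 1. There was no DEG in either list with all 4 libraries, and edgeR called 1 mesothelial gene higher without WT replicate 1.

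To ask where the spleen differed from the rest of the series, the change in the spleen was set against the mean change in the 4 other tissues in a single edgeR fit of all 20 libraries. Of 23159 genes tested, 0 lay above and 0 below (0% each), with 246 above and 182 below at an unadjusted p under 0.05 and a smallest adjusted p of 0.99998. No other tool was run for this contrast. For 4029 of these genes, 7 of the 42 DEGs included, the contrast gave no usable estimate, with an SE above 100. All 4029 had no read in both libraries of at least 1 tissue and genotype, and Slc4a1 and Hemgn were among the 7. In this fit the spleen comparison itself also gave 0 DEGs, so the 0 does not show that the other tissues changed like the spleen. The red cell membrane list had a median of 0.25 over 15 genes in the small intestine, 0.10 over 9 in the liver, 0.36 over 13 in the kidney, and 0.04 over 17 in the heart, beside 1.34 over 21 in the spleen. The mitosis list had medians of -0.99, 0.10, -0.25, and 0.39 in these tissues beside 0.98, and the heme list stayed between 0.01 and 0.14 beside 1.23. The globins had a median of 0.86 over 4 genes in the small intestine, close to the 0.94 in the spleen, and -0.11, 0.26, and 0.26 in the liver, kidney, and heart. The interferon list had -0.53, 0.27, -0.01, and 0.16 in these tissues beside 0.29. No test was made of these differences between medians.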

How the data were processed

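RNA from whole tissue was sequenced with a stranded mRNA kit. Per the submitters' processing notes and the methods, the authors trimmed reads with cutadapt, mapped them with HISAT2 2.1.0, and counted them with featureCounts 2.0.1 against Ensembl gene exons (GRCm38). They deposited raw counts per gene, without normalization or pooling, and the length of merged exons (other than a measured value). The methods name GRCh38, and the labels mm10. The stored command holds neither the strand nor the pair option of the methods, so reads of overlapping genes could be lost or shared, and 5 of the 42 DEGs share exon bases, 4 of them over 10%. Ank1 shares 6.37%, Cpox 3.06%, Cd3e 3.31%, Stab2 1.61%, and Col3a1 1.44%.

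Counts were analysed with edgeR 4.0.16 in R 4.3.3 (TMM, filterByExpr, robust quasi-likelihood fit, Benjamini-Hochberg adjustment) on the 4 spleen libraries. Standard errors were derived from each log2 fold change and its F statistic. TPM was used only for levels between genes. DESeq2 1.42.0, named in the methods, and limma-voom (limma 3.58.1) were alternatives, with other scaling, filters, thresholds, a replicate block, and libraries or liver genes left out. Python 3.11.15, pandas 2.3.3, and matplotlib 3.10.9 were used for sequences and figures. The edgeR fits of the spleen, with and without the block, the contrast with the other tissues, and DESeq2 were tested on simulated counts, limma-voom was not. Depth was 25021003 to 34687048 counts per library, and the spread between replicates (biological coefficient of variation 0.310) limits precision more than counting. Between replicates of equal number in WT and KO, the deviations had a correlation of -0.02 over the genes tested. This value cannot show whether such replicates were handled together, and the labels give only a number.

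The genes and lists were chosen with earlier results of these data known. Named were Nsun6, up to 10 DEGs per direction, ranked by p, the 2 genes with the smallest p and the most abundant gene of each list, and a set of landmark genes, of which those that add most are given. Beyond this rule, Myb, Gata2, Tac2, Ackr1, Rhd, Abcb10, Slc6a9, Hba-x, Hbb-y, Hbb-bh1, Hbq1b, and Hbq1a were chosen after their values were seen. So were genes named only as called by DESeq2. Bisulfite data were not analysed here, and some genes named by the rule are not reported here.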

Additional observations from a re-analysis of the deposited data

How the results depend on the processing

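Higher and lower DEGs numbered 206 and 13 with DESeq2, where 2191 genes had no adjusted p, and 67 and 1 with limma-voom. They numbered 260 and 53 without a filter on low counts, where 35 of the 53 were liver genes, and 104 and 1 with at least 10 counts in every library. One fit of all 20 libraries (coefficient of variation 0.438) and an adjusted p under 0.05 gave 0 and 0. Without liver genes the numbers were 104 and 2, and with the estimated liver share of 1.25% taken from WT replicate 2 they were 97 and 2, 22 of the 97 being liver genes. Leaving out 1 library at a time gave 0 to 265 higher and 0 to 301 lower DEGs, the lone library of a genotype being assumed to vary like those of the other. Without liver genes and WT replicate 2, a setting chosen after seeing the data, there were 147 and 6. Median ratio factors gave 51 and 1, library size alone 33 and 1 with 34 of the 42 DEGs kept, and TMM without the erythroid, cell cycle, globin, and antibody lists 49 and 1. The cause of these differences was not tested.

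With the replicate number as a block, 42 genes were higher and 1 lower, and 32 of the 42 DEGs were among them. Among the DEGs described, the calls of Tfdp2, Tac2, Ackr1, and Hbq1b ended with library size alone and with the block, and that of Fabp4 with the block. The sources used here do not state whether samples of equal number were paired. All 42 DEGs kept their direction in every setting in which they were tested. The genotypes were apart in each of the 42, so little else was possible. The Nsun6 log2 fold change reversed, to -0.0084 with library size alone and -0.11 without liver genes and WT replicate 2, and it ranged from -0.35 to 0.38 when 1 library was left out, with negative values without WT replicate 2 (-0.11) and without KO replicate 2. The median of all genes moved most with library size alone, to -0.07.

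List medians stayed positive in all 14 settings for the red cell membrane (1.13 to 1.73), heme synthesis (0.94 to 1.41), mitosis (0.71 to 1.22), and DNA replication (0.43 to 0.95), and negative for megakaryocytes (-0.60 to -0.23). Of the 38 lists, 20 kept the sign of their median in all settings and 18 did not. The sign changed in 14 settings for stress erythropoiesis signals, in 3 each for T cells, red pulp macrophages, and mesothelium, in 2 each for neutrophils, the erythropoietin response, plasma cells, regulatory T cells, stress and immediate early genes, skeletal muscle, and exocrine pancreas, and in 1 each for early erythroid, lymphoid stroma, germinal centre, follicular and marginal zone B cell, marginal zone macrophage, mast cell and basophil, and hepatocyte genes. For the contrast of the spleen with the other tissues, 62 genes lay above and 176 below without the filter, and leaving out 1 library at a time gave 0 to 1 above and 0 to 16 below.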

Other observations

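Further genes, chosen after their values were seen, stood out in the table. Fgfbp3 gave 209 and 195 counts in the WT spleens against 47 and 47 in the KO spleens (log2 fold change -2.03, edgeR adjusted p = 0.137), so that the genotypes were apart. Bloodlinc, a long noncoding RNA of red cell precursors (chr11:102375549-102377020, beside Slc4a1), gave 3 and 0 counts against 17 and 39 in the same order. For Erdr1 the counts were 491 and 754 against 295 and 106.

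Some genes were present mainly in 1 library. Kap, an androgen-regulated gene of the kidney, gave 24 and 8 counts in the WT spleens against 1490 and 14 in the KO spleens. For Gm10095 the counts were 109 and 112 against 87 and 11640, and for Gm4759 75 and 21 against 30 and 1407.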
